A study of Sus scrofa with 2 samples.

Results

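RNA sequencing of Rongchang pigs (Sus scrofa), a domestic breed from China, was used to compare the enzymes of the methionine cycle and of transsulfuration in brain with those in liver. The members were taken as the table rows that carry the symbol of 1 of 9 enzymes, or that carry a number in place of a symbol and a product text naming the enzyme, and rows of 1 gene were summed. This found 8 of the 9 enzymes among 21442 genes. No row was matched to CBS, cystathionine beta-synthase, the first enzyme of transsulfuration, which is not analysed here. The brain group is 1 library of Rongchang brain and the liver group 1 library of Rongchang liver, and both tissues were frozen on collection, with no treatment given in the labels. Age, sex, brain region and whether 1 animal gave both tissues are not stated in the labels.

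Methionine is activated to S-adenosylmethionine (SAM), the methyl donor of most cellular methylation reactions. After the methyl group is given away, S-adenosylhomocysteine remains and is split into adenosine and homocysteine. Homocysteine is then either methylated back to methionine, with methylfolate or betaine as the donor, or drawn off by transsulfuration toward cysteine, which feeds glutathione and taurine. The adult liver is known as the main site of methionine breakdown in mammals. It is known for its own SAM synthetase, MAT1A, whereas other tissues rely on MAT2A.

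Total counts were 23796843 in brain and 31724498 in liver. Levels below are scaled CPM, that is, counts per 1000000 counts, after TMM scaling, a method that sets libraries against each other by the bulk of their genes. The value of 1 CPM corresponds to 34.9 counts in brain and 21.6 counts in liver. There are no replicates, so no test was possible, and every 95% interval covers counting error only. A gene was called in brain when the log2 ratio of scaled CPM plus 1, brain over liver, was at least 2, and called in liver when it was -2 or below, which are 4-fold differences. Of 8 neuron markers, 8 were called in brain, and of 8 hepatocyte markers with a row, 8 were called in liver. In brain the hepatocyte markers had 2 to 8130 counts and a summed level of 307 CPM, against 394722 CPM in liver, and none was at 0. The neuron markers had a summed level of 6654 CPM in brain, against 12.9 CPM in liver, where they had 4 to 127 counts and none was at 0. Of 8 astrocyte and 6 oligodendrocyte markers tested, 8 and 6 were called in brain, and AQP4 was at 0 in liver. MOG had 21 counts in brain and 0 in liver, below 1 CPM in both, and was not tested. Plain library size in place of TMM moves every log2 fold 1.11 toward brain and puts the median of all tested genes at 0.98 instead of 0.02. Directions are therefore read relative to that median.

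The liver library carried far more reads of most of these enzymes, and most SAM synthetase reads came from MAT2A in brain and from MAT1A in liver. Of the 8 members, 6 were called in liver (MAT1A, BHMT, CTH, GNMT, AHCY and MTR), 0 were called in brain, and MAT2A and MAT2B were in neither class. Among all 15569 genes tested, 11.3% were called in liver and 14.6% in brain. The median log2 ratio of the members was -3.83, against 0.02 over all genes tested. With plain library size 4 of 8 were called in liver, since AHCY and MTR then fell short of 4-fold, and 0 in brain, against 6.02% of all genes in liver and 24.1% in brain. Without the 50 highest genes of either library 5 were called in liver, MTR falling short, and 0 in brain, against 8.66% and 18.0% of all genes. A line at 2-fold gave 6 members in liver and 0 in brain, against 24.4% and 27.5% of all genes, and a line at 8-fold gave 4 and 0, against 5.69% and 8.54%. In tissue RNA, fewer cells of a type and less RNA per cell cannot be told apart.

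**Figure D1:**
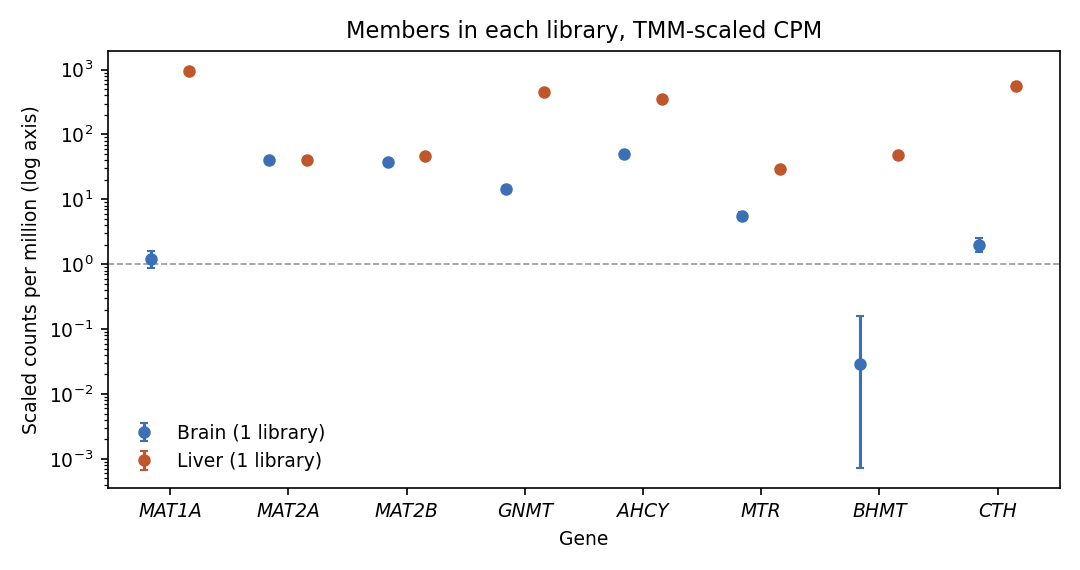
Scaled CPM (log axis) of the 8 measured members in the brain library and the liver library, with exact 95% Poisson intervals for counting error and a dashed line at 1 CPM. MAT2A and MAT2B lie side by side in both tissues, while MAT1A lies at 1.20 CPM in brain and 952 CPM in liver.

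Among the genes that make SAM, the first step of the cycle, 1 catalytic subunit was far lower in brain and the other was level. MAT1A encodes the catalytic subunit of the liver form of methionine adenosyltransferase. It had 42 counts in brain, equal to 1.20 CPM, against 20561 counts in liver, equal to 952 CPM. MAT1A was therefore 792-fold lower in brain (95% interval 585 to 1099), and its log2 ratio of -8.76 was number 65 from the liver end among the 15569 genes tested. MAT2A is known as the catalytic subunit of tissues other than adult liver, but the liver library held its reads too. It had 1425 counts in brain and 869 in liver, or 40.8 CPM in brain and 40.2 CPM in liver. The fold of MAT2A, brain over liver, was 1.01 (0.932 to 1.10), an interval that holds 1. With plain library size it was 2.19-fold higher in brain (2.01 to 2.38), still under 4-fold.

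MAT2B encodes the regulatory subunit that binds the MAT2A enzyme. It had 1308 counts in brain, or 37.4 CPM, against 1011 counts in liver, or 46.8 CPM, and was 1.25-fold lower in brain (1.15 to 1.36). The log2 ratio of MAT2B was -0.31, against a median of 0.02 over all genes tested. It was 0.77 against a median of 0.98 for plain library size, and 0.13 against 0.43 when the 50 highest genes were left out, so that MAT2B lay below the median each time though its sign differed. The ratio of MAT2B to MAT2A counts, which no library scaling can move, was 0.918 in brain (0.852 to 0.989) and 1.16 in liver (1.06 to 1.27). MAT2B thus had relatively fewer reads per MAT2A read in brain, by a factor of 0.789 (0.701 to 0.888).

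Of the reads of MAT1A and MAT2A, most came from MAT2A in brain and from MAT1A in liver, while the MAT2A level was even with TMM scaling. MAT1A made up 2.86% of the MAT1A and MAT2A counts in brain (Wilson 95% interval 2.13 to 3.85), against 95.9% in liver (95.7 to 96.2). In brain there were 33.9 MAT2A counts for each MAT1A count, and in liver there were 23.7 MAT1A counts for each MAT2A count. The MAT1A to MAT2A ratio was 803-fold lower in brain (585 to 1126), and this value is free of library scaling and of transcript length. The percentages themselves compare reads, not molecules, because no transcript lengths were at hand. Summed, both genes stood at 42.0 CPM in brain and 992 CPM in liver, 23.6-fold lower in brain (22.4 to 24.9), and 11.0-fold lower with plain library size.

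**Figure D2:**
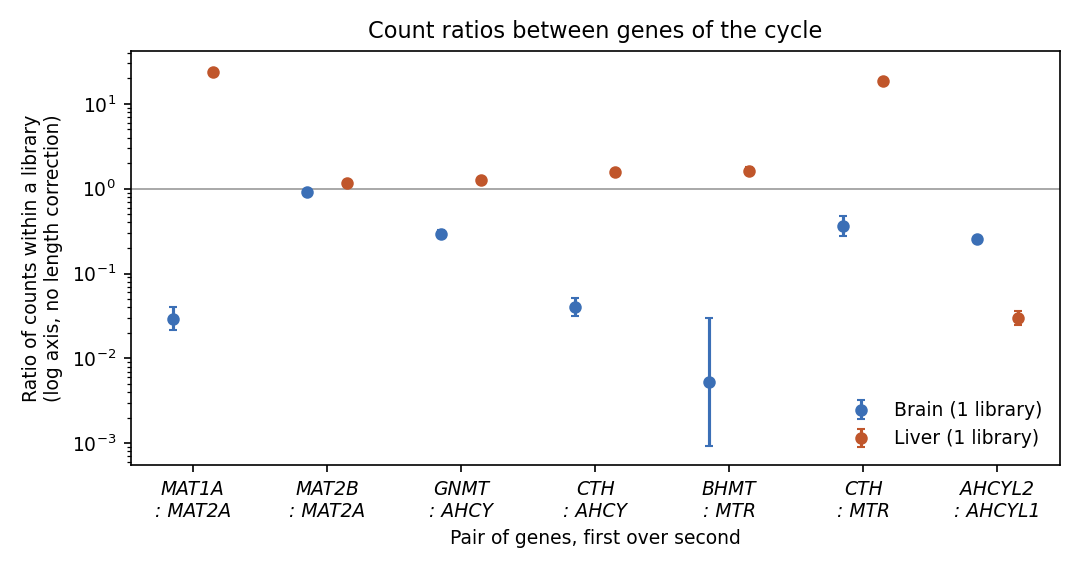
Ratio of the counts of 2 genes within a library (log axis, no length correction), brain and liver, with Wilson 95% intervals for counting error. The MAT1A to MAT2A ratio is 0.0295 in brain and 23.7 in liver, whereas the MAT2B to MAT2A ratio lies near 1 in both.

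The enzymes on either side of S-adenosylhomocysteine were lower in brain, but not to the same extent. GNMT, glycine N-methyltransferase, spends SAM on glycine and is known as the enzyme that buffers the SAM supply of liver. It had 506 counts in brain, or 14.5 CPM, against 9666 counts in liver, or 447 CPM, and was 30.9-fold lower in brain (28.2 to 33.8). AHCY, the hydrolase that removes S-adenosylhomocysteine in all tissues, had 1726 counts in brain, or 49.4 CPM, against 7564 counts in liver, or 350.0 CPM. AHCY was 7.09-fold lower in brain (6.72 to 7.47), and 3.29-fold lower with plain library size. The GNMT to AHCY count ratio was 0.293 in brain and 1.28 in liver, 4.36-fold lower in brain (3.93 to 4.83).

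GNMT overlaps the peroxisome gene PEX6 in a reference gene table of a later assembly, and the strand setting of the counting is not known. The PEX6 row had 483 counts in brain and 1021 in liver, and its log2 ratio was -1.70. How many of the 506 brain counts of GNMT belong to PEX6 transcripts was not tested.

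Both routes that return homocysteine to methionine had fewer reads in brain. MTR, methionine synthase, takes the methyl group from methylfolate with cobalamin as cofactor. It had 192 counts in brain, or 5.50 CPM, against 642 counts in liver, or 29.7 CPM, and was 5.41-fold lower in brain (4.59 to 6.39). The log2 ratio of MTR was -2.24, and it fell short of 4-fold at -1.23 with plain library size and at -1.82 without the 50 highest genes. BHMT, which uses betaine as the donor and is known from liver and kidney, had 1 count in brain against 1048 in liver, or 0.0286 CPM in brain against 48.5 CPM in liver. With a single brain count, its 1694-fold lower level in brain carries an interval from 303 to 66990.

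The BHMT value joins the row named BHMT, with 1 count in brain and 578 in liver, and a numbered row described as a BHMT 1-like enzyme, with 0 counts in brain and 470 in liver. The row named BHMT alone gave a 935-fold lower level in brain (167 to 36975). BHMT was also the 1 member that passed the filter of 1 CPM through liver alone, so it could not have been called in brain. Its paralogue BHMT2, the next row of the table, is known to use S-methylmethionine as the donor. BHMT2 had 36 counts in brain, or 1.03 CPM, against 10505 counts in liver, or 486 CPM, and was 472-fold lower in brain (341 to 674). How reads were divided between BHMT, its 1-like row and BHMT2 is not known, so the split is uncertain, while the sum of all 3 rows was 505-fold lower in brain (366 to 717).

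BHMT was lower in brain than MTR was, relative to liver. The BHMT to MTR count ratio was 0.00521 in brain, where it rests on that 1 BHMT count, and 1.63 in liver. This ratio was 313-fold lower in brain (55.2 to 12455). MTRR, the reductase that keeps MTR active, had 356 counts in brain, or 10.2 CPM, against 2215 counts in liver, or 103 CPM, and was 10.1-fold lower in brain (8.99 to 11.3). The MTRR to MTR ratio was 1.85 in brain and 3.45 in liver.

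CTH, cystathionine gamma-lyase, releases cysteine in the last step of transsulfuration and was far lower in brain. It had 70 counts in brain, or 2.004 CPM, against 11893 counts in liver, or 550.4 CPM. CTH was 275-fold lower in brain (217 to 353), and 127-fold lower with plain library size. Set against MTR, which returns homocysteine to methionine, the CTH to MTR count ratio was 0.365 in brain (0.278 to 0.479) and 18.5 in liver (17.1 to 20.1), 50.8-fold lower in brain (38.2 to 67.6). In the reference table a pseudogene overlaps CTH, and the strand of its reads is not known. Without CBS, the first step of this route has no value here.

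**Figure D3:**
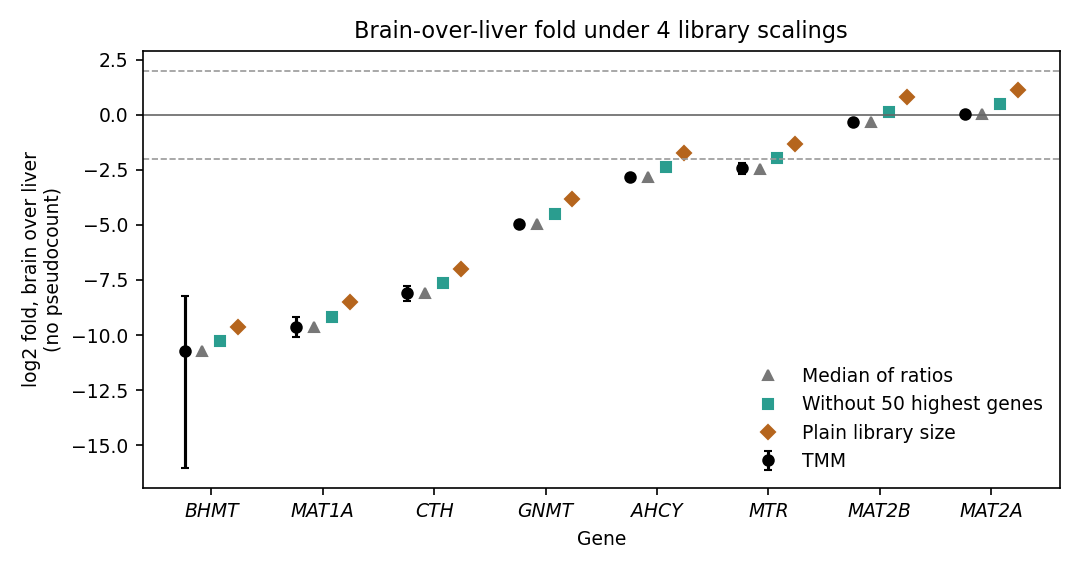
log2 fold, brain over liver, of each member without a pseudocount under 4 library scalings, with exact 95% intervals for counting error on the TMM values and dashed lines at -2 and 2. BHMT, MAT1A, CTH and GNMT lie below -2 under every scaling shown, AHCY and MTR lie near that line, and MAT2B and MAT2A lie within 4-fold of even under each.

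Ordered by fold, the members ran from BHMT (log2 fold without a pseudocount -10.73) and MAT1A (-9.63) through CTH (-8.10), GNMT (-4.95), AHCY (-2.82) and MTR (-2.43) to MAT2B (-0.32) and MAT2A (0.02). BHMT and MAT1A did not differ beyond counting error, with a ratio of their folds of 0.467 (0.0115 to 2.75). All other neighbours in this order differed beyond counting error, the nearest being MAT2B and MAT2A with a ratio of 0.789 (0.701 to 0.888), then AHCY and MTR with 0.763 (0.644 to 0.904). Together the 8 members took 0.0221% of brain counts (Wilson 0.0216 to 0.0228) and 0.168% of liver counts (0.166 to 0.169).

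The few MAT1A, BHMT and CTH reads in brain were set beside the liver gene ALB. The ALB brain count equalled 0.0262% of its liver count, and the 8 hepatocyte markers ranged from 0.00829% for APOA2 to 3.40% for APOA1, with a median of 0.0473%. MAT1A stood at 0.204% (0.147 to 0.276), CTH at 0.589% (0.459 to 0.744) and GNMT at 5.23% (4.78 to 5.72), all above the ALB percentage. BHMT stood at 0.0954% with an interval of 0.00241 to 0.533, which holds it. At the ALB percentage, liver reads carried into the brain library would amount to 5.39 of the 42 MAT1A counts and 3.12 of the 70 CTH counts. With those taken off, MAT1A was 908-fold and CTH 287-fold lower in brain. The source of the remaining reads was not tested.

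The surrounding pathways followed the members in part. Of 67 genes in 9 lists, 58 had a row and 57 passed the filter. Of these, 19 were called in liver and 3 in brain (AHCYL2, SLC7A11 and CHAC1), against 11.3% and 14.6% of all genes tested. The median log2 ratio of the 57 genes was -1.52, against 0.02 over all genes tested. Plain library size gave 11 in liver and 6 in brain, against 6.02% and 24.1% of all genes. SLC7A11, CHAC1 and PDXP passed the filter through brain alone and could not have been called in liver. Another 5 genes passed through liver alone and could not have been called in brain, of which 3 were called in liver (SARDH, NNMT and INMT).

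**Figure D4:**
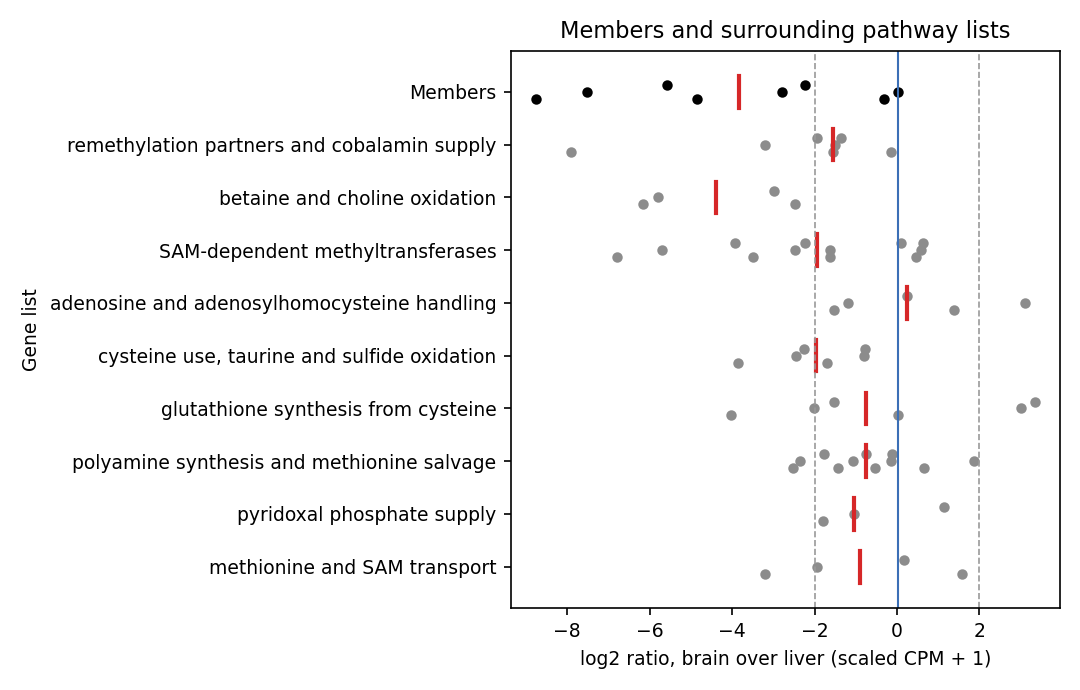
log2 ratio, brain over liver (scaled CPM plus 1), of each gene that passed the filter, by list, with red bars at list medians, a blue line at the median of all genes tested and dashed lines at -2 and 2. The betaine and choline oxidation list lies wholly beyond -2, and the adenosine and adenosylhomocysteine list is centred at 0.25.

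Betaine and choline oxidation, which supplies BHMT and clears its product, had the median furthest toward liver among the 9 lists, from 4 genes. All 4 genes of this list with a row were called in liver, against 11.3% of all genes, with a median log2 ratio of -4.38. With plain library size 2 of 4 were called in liver, against 6.02% of all genes. SARDH passed the filter through liver alone, so it could not have been called in brain. DMGDH, which oxidises the dimethylglycine that BHMT releases, had 211 counts in brain and 8359 in liver and was 64.1-fold lower in brain (55.9 to 73.8). In the reference table it overlaps BHMT2, with which it may share reads. SARDH, the next enzyme, which clears the sarcosine that GNMT also makes, had 29 counts in brain and 2787 in liver and was 155-fold lower in brain (108 to 232). CHDH, which starts choline oxidation, had a log2 ratio of -2.98. PEMT, which makes phosphatidylcholine with SAM, had -2.46, and -1.38 with plain library size. PEMT is also counted among the SAM-using methyltransferases.

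SAM-using methyltransferases ran from the liver side to slightly on the brain side. Of 12 tested, 6 were called in liver and 0 in brain (median -1.94), against 11.3% and 14.6% of all genes. With plain library size 4 were called in liver and 0 in brain, against 6.02% and 24.1% of all genes. The median was then -0.90, against 0.98 over all genes. NNMT and INMT, both called in liver, passed the filter through liver alone and could not have been called in brain. GAMT, which makes creatine, had 295 counts in brain and 10495 in liver and was 57.5-fold lower in brain (51.2 to 64.8). The protein arginine methyltransferase PRMT1 was at 90.0 CPM in brain against 57.5 CPM in liver. The maintenance DNA methyltransferase DNMT1 was at 81.4 CPM in brain against 58.7 CPM in liver. These last genes had log2 ratios of 0.64 for PRMT1 and 0.46 for DNMT1, short of 4-fold, and stayed above 0 with every scaling run.

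Genes of adenosine handling and the AHCY-like genes, taken as 1 list, lay on both sides. Of 5 tested, 1 was called in brain, the AHCY-like AHCYL2, and 0 in liver, against 14.6% and 11.3% of all genes. The list median of 0.25 was the value of the AHCY-like AHCYL1. With plain library size 2 genes, AHCYL2 and ADA, were called in brain, against 24.1% of all genes. The log2 ratio of ADA was 1.38 with TMM scaling. AHCYL2, an AHCY-like protein without known hydrolase activity, had 1790 counts in brain, or 51.2 CPM, against 109 counts in liver, or 5.04 CPM, and was 10.2-fold higher in brain (8.37 to 12.4). The related AHCYL1, known as a regulator of inositol trisphosphate receptors, had 6992 counts in brain, or 200.1 CPM, against 3628 counts in liver, or 168 CPM. Its fold, brain over liver, was 1.19 (1.14 to 1.24). For each AHCY count there were 4.05 AHCYL1 counts in brain and 0.480 in liver, a ratio 8.45-fold higher in brain (7.91 to 9.02). Adenosine kinase ADK, which removes the adenosine that AHCY releases, had a log2 ratio of -1.53. The nucleotidase NT5E had -1.19.

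Beyond cysteine the pattern was mixed. Of 6 genes of cysteine use, taurine and sulfide oxidation, 3 were called in liver and 0 in brain (median -1.97). The shares over all genes tested were 11.3% and 14.6%. With plain library size 1 of 6 was called in liver and 0 in brain, against 6.02% and 24.1% of all genes. The median was then -0.92, against 0.98 over all genes. CDO1, the dioxygenase that commits cysteine to taurine and sulfate, had 402 counts in brain and 3872 in liver and was 15.6-fold lower in brain (14.0 to 17.3). SUOX, sulfite oxidase, had a log2 ratio of -2.26, MPST, a sulfurtransferase, -2.46, SQOR, a sulfide oxidising enzyme, -1.69, and GOT1, an aminotransferase, -0.78. With plain library size GOT1 was at 0.32, below the median of 0.98 over all genes.

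In the glutathione list, 2 of 6 genes were called in liver and 2 in brain, against 11.3% and 14.6% of all genes. Both brain calls, SLC7A11 and CHAC1, passed the filter through brain alone, so they could not have been called in liver. The list median was -0.75 on the log2 scale. Under plain library size it was 0.24, against 0.98 over all genes. Then 1 gene was called in liver and 2 in brain, against 6.02% and 24.1% of all genes. GCLC, the catalytic subunit of the first enzyme of glutathione synthesis, had a log2 ratio of -2.02, at 23.3 CPM in brain against 97.5 CPM in liver, and -0.93 with plain library size. GSS, glutathione synthetase, had -1.52 and GGT1, which breaks glutathione down outside the cell, -4.02. The cystine importer SLC7A11, a source of cysteine other than CTH, had 533 counts in brain, or 15.3 CPM, against 13 counts in liver, or 0.602 CPM. SLC7A11 was 25.4-fold higher in brain (14.7 to 47.9), the reverse of CTH. CHAC1, which degrades glutathione inside the cell, had 299 counts in brain and 4 in liver and was 46.2-fold higher in brain (17.9 to 171).

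Polyamine synthesis, which consumes SAM, and the salvage of methionine from it lay nearer to even. Of 11 genes, 2 were called in liver, namely ADI1 and MTAP, and 0 in brain, against 11.3% and 14.6% of all genes. The list median was -0.74 on the log2 scale. Under plain library size it was 0.35, against 0.98 over all genes. Then 0 genes were called in liver and 1 in brain, ENOPH1 at 2.94, against 6.02% and 24.1% of all genes. ADI1, which acts late in the salvage pathway, had a log2 ratio of -2.52, at 52.9 CPM in brain against 308 CPM in liver. AMD1, which decarboxylates SAM for polyamines, was 1.58-fold higher in brain (1.49 to 1.68), at 108 CPM in brain against 68.6 CPM in liver. The acetyltransferase SAT1 had a log2 ratio of -1.42. OAZ1, an inhibitor of ornithine decarboxylase, had -0.12, and 0.98 with plain library size.

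Cofactor supply and transport formed short lists of 3 to 7 tested genes, too small to read a share from. Over all genes tested, 11.3% were called in liver and 14.6% in brain. With plain library size these shares were 6.02% and 24.1%. Of 7 remethylation partners and cobalamin genes, 2 were called in liver, BHMT2 and MTRR (median -1.54). MMADHC, which directs cobalamin to MTR, had a log2 ratio of -1.93 and LMBRD1, a lysosomal cobalamin exporter, -0.13, the last at 0.96 with plain library size. Of 3 genes of pyridoxal phosphate supply, the cofactor of CTH, 0 were called in either tissue (median -1.04, and 0.01 with plain library size). PDXK had a log2 ratio of -1.04 and PDXP 1.14, the last with 2 counts in liver. Of 4 transport genes, 1 was called in liver (median -0.88), and 1 in each tissue with plain library size. The gene called in liver was SLC43A2, a transporter of neutral amino acids, at 8.36 CPM in brain against 84.3 CPM in liver. SLC3A2, the heavy chain of amino acid exchangers, had a log2 ratio of 1.58, and 2.63 with plain library size. SLC25A26, the mitochondrial SAM carrier, had 0.18. SLC38A2 had 11 counts in brain and 88 in liver.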

How the data were processed

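RNA of 1 brain and 1 liver library was analysed. The authors deposited raw counts per gene, read as such from whole numbers with unequal totals, and a gene length in bp of another scale, which includes introns and was not used. Reads were aligned with TopHat to Sscrofa10.2 (susScr3), per the submitters' processing notes; no source used here gives its version, the counter or the strand handling. Of 21817 rows, 7829 were named by the table, 6594 by gene number, 366 by accession and 26 by synonym from a RefSeq table of Sscrofa11.1, 1 by product, and 7001 stayed unnamed.

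Counts were scaled with TMM (edgeR 4.0.16, R 4.3.3; factors 1.47 for brain and 0.681 for liver). Genes at 1 CPM in a library entered, with a pseudocount of 1 in log2 ratios only; folds have exact conditional binomial 95% intervals, and ratios of ratios exact conditional or, with at least 50 counts each, log normal ones (scipy 1.17.1). Named genes are all members, the 4 highest tested genes of each list, any gene at 4-fold or more against its list's median, and the paralogues and partners AHCYL1, AHCYL2, BHMT2 and MTRR; some genes that this rule takes are not reported here; ADA, ENOPH1, INMT, MPST, MTAP, NNMT and PEX6 were chosen after their values were seen. Members and lists were chosen with earlier results of these data known. The procedure was tested on simulated data. Alternatives were other scalings, pseudocounts, filters, folds, row choices and carry-over subtraction.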

Additional observations from a re-analysis of the deposited data

How the results depend on the processing

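With 1 library per tissue, depth limits BHMT in brain most, where 1 count stands behind its value. Members called in liver numbered 4 to 6, and in brain 0, under the 11 alternatives tried. Genes of the 9 lists called in liver numbered 19. They numbered 11 with plain library size, 15 without the 50 highest genes, 35 at 2-fold and 11 at 8-fold. With a pseudocount of 0.1 CPM they numbered 21, and 16 with 5 CPM. The liver share of all genes was 11.3%, with 6.02% for plain library size, 24.4% at 2-fold and 5.69% at 8-fold. List genes called in brain numbered 3, and 6 with plain library size, 5 without the 50 highest genes and 7 at 2-fold. With a pseudocount of 0.1 CPM they numbered 4, and 1 with 5 CPM. No share of all genes was taken for these pseudocounts, so these counts have nothing to be set against. The brain share of all genes was 14.6%, with 24.1% for plain library size, 18% without the 50 highest genes and 27.5% at 2-fold. MAT1A made up 2.51% of the MAT1A and MAT2A counts in brain after carry-over at the ALB percentage was subtracted, inside its counting interval. The log2 folds of 7 of 8 members left their counting intervals under plain library size and when the 50 highest genes were left out, and those of 0 of 8 with the other settings run. The row named BHMT alone was added after the data were seen. Counts per coding length were not run, since no protein sequences were used here. No paired analysis was possible because each tissue has 1 library.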
